A study of Mus musculus with 10 samples.

Results

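The proton pump that acidifies lysosomes, the cathepsins that digest protein inside them, and the membrane proteins Lamp1 and Lamp2 were followed in mouse macrophages answering a bacterial lipid. The genes were taken by symbol: every row of the count table whose name begins with Atp6v0, Atp6v1 or Atp6ap, is Cts followed by a single letter, or is Lamp1 or Lamp2. This gave 46 of the 23284 genes in the table: 10 rows for subunits of the membrane sector V0 of the pump, 13 for subunits of its catalytic sector V1, 3 for accessory subunits, 14 for cysteine cathepsins, 4 for aspartic and serine cathepsins, and 2 for the LAMP proteins. The cells were macrophages grown from C57BL/6J bone marrow for 6 days in macrophage colony-stimulating factor, and polyadenylated RNA was sequenced. Kdo2-lipid A, the part of lipopolysaccharide that Toll-like receptor 4 recognises, was given at 0.03 nM for 1 h, 0.03 nM for 2 h, 10 nM for 1 h or 10 nM for 2 h, and the reference cells were untreated at 0 h. Each of the 5 groups holds 2 libraries, one from experiment 1 and one from experiment 2, and wherever a pair of values is given for a group, experiment 1 stands first. No untreated group at 1 h or 2 h was analysed here, so a difference from untreated cells cannot be told apart from an effect of time in culture, while the comparisons of 10 nM with 0.03 nM are made at equal times. The labels do not say whether different animals gave the marrow, so p-values measure the spread between these libraries.

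The vacuolar proton pump is a rotary enzyme. Its V1 sector, on the cytosolic face, hydrolyses ATP and turns a shaft that drives the proteolipid ring of the V0 sector, which carries protons into the lumen. The acid opens and activates the cathepsins, proteases made as inactive precursors that degrade engulfed microbes and the cell's own proteins, and some of which trim antigens or other proteases. LAMP proteins coat the inner face of the lysosomal membrane with sugar chains, and in macrophages this whole system works on what the cell has taken up.

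Library totals ran from 33179599 to 42167096 counts. Levels are in CPM, counts set against the library's total. Unless library totals are named, that total carries edgeR's TMM factor, which aligns libraries on the bulk of their genes. The TMM factors were 0.788 and 0.775 at 10 nM 2 h and 0.885 and 0.897 at 10 nM 1 h, against 1.15 and 1.15 in untreated cells and 1.09 to 1.15 at 0.03 nM. The choice matters here: with library totals and no factor, the median log2 fold change of all tested genes was -0.38 at 10 nM 1 h and -0.59 at 10 nM 2 h against untreated cells, where TMM gave -0.02 and -0.03. For 10 nM against 0.03 nM it was -0.37 at 1 h and -0.52 at 2 h. Log2 fold changes with TMM and with library totals are therefore set side by side for most genes. Marker sums below were taken with TMM only, and the smaller factors at 10 nM raise them there relative to untreated cells. At 0.03 nM 2 h, the log2 difference between the experiments followed exonic length, with Spearman rho of -0.71 over 33 genes of the set and -0.68 over 8126 genes, compared with -0.20 to 0.52 over the set in the other groups. All 12 macrophage markers passed the filter, with summed levels of 34760 to 36300 CPM at 10 nM 2 h against 27220 to 29430 CPM in untreated cells. By the test described below, 4 of the 12 were called higher and 1 lower there, or 41.7% beside 58.7% of all genes. Cd14 had 3444 and 3360 CPM at 10 nM 2 h against 543 and 524 CPM in untreated cells, and Mertk 52.6 and 69.0 CPM against 114 and 120 CPM. No sum without Cd14 was taken. Markers of other cells were also higher in sum at 10 nM 2 h with TMM. The 11 neutrophil genes summed to 175 to 178 CPM at 10 nM 2 h against 91.9 to 96.1 CPM in untreated cells, and the 9 osteoclast genes to 124 to 125 CPM against 99.9 to 102 CPM. The 10 stromal and endothelial genes summed to 65.6 to 114 CPM at 10 nM 2 h against 45.3 to 80.0 CPM in untreated cells, and 7 dendritic cell genes to 19.4 CPM in both libraries against 9.09 to 12.3 CPM. Of 10 T and NK cell genes, 2 had no count and the sum of 31.9 to 39.2 CPM came almost wholly from Cd4. In the osteoclast list and the stromal and endothelial list a few genes carried the difference. The osteoclast list without Acp5 summed to 82.5 to 83.9 CPM at 10 nM 2 h against 88.9 to 92.5 CPM in untreated cells, and the stromal and endothelial list without Kdr and Pdgfrb to 38.8 to 76.8 CPM against 40.1 to 71.7 CPM. Without Csf3r the neutrophil list was still higher, 31.5 to 38.7 CPM at 10 nM 2 h against 19.4 to 26.7 CPM in untreated cells. The dendritic cell list was not summed with genes left out. The part of these cells in the results below was not tested, and in bulk RNA fewer cells of a type and less RNA per cell cannot be told apart.

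The genes of the set were among the most abundant messages of these cells. Of the 46 rows, 33 passed the filter on low counts. They hold 32 separate genes, because the rows Atp6v0c and Atp6v0c-ps2 share 1117 exonic bases on the same strand and differed by 0 to 3 counts in each library. They count the same reads, and Atp6v0c stands for both in every sum. In untreated cells the set took 3.81% and 3.71% of all counts. Per kilobase of exonic length, 6 of the 32 genes were within the 100 highest of the 12918 tested genes and 24 were within the 1000 highest. Ctsd, the aspartic protease cathepsin D, ranked 7 at 3742 ± 137 CPM per kb in untreated cells (SD, n = 2 here and below). Ctss, cathepsin S, which cleaves the invariant chain of class II molecules, ranked 9 at 2786 ± 21.3 CPM per kb, and Ctsb, a cysteine protease with carboxydipeptidase activity, ranked 12 at 2482 ± 65.7 CPM per kb. Together these 3 made up 66.7% to 70.4% of the summed CPM of the set in the 10 libraries. Lamp1 ranked 48 at 770 ± 27.8 CPM per kb and Atp6v0c, the proteolipid that forms most of the proton-carrying ring, ranked 71 at 591 ± 22.5 CPM per kb. At the other end, Ctse, an aspartic protease, had 0.792 ± 0.119 CPM per kb and ranked 10451, and Atp6v1g2 had 2.45 ± 0.418 CPM per kb and ranked 8967.

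**Figure D1:**
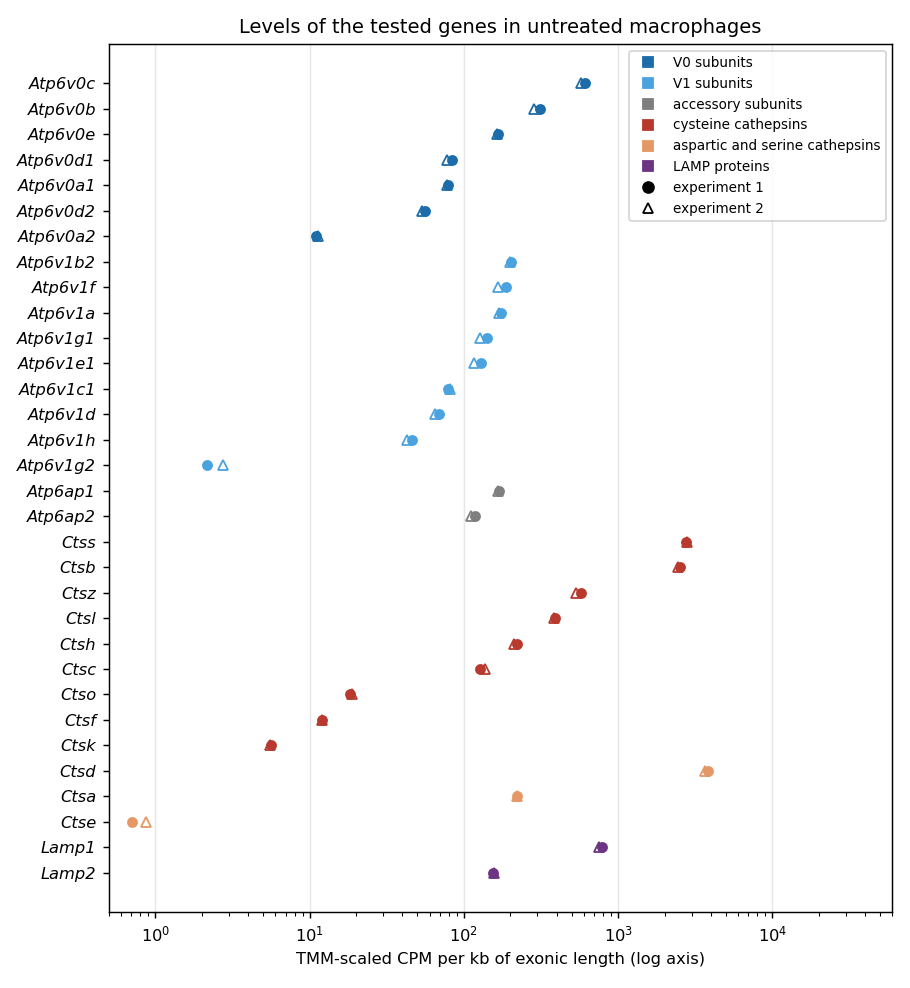
Level of each of the 32 tested genes in the 2 untreated libraries, in TMM-scaled CPM per kb of exonic length on a log axis; filled circles are experiment 1, open triangles experiment 2, colours the roles. Ctsd, Ctss and Ctsb stand at 2482 to 3742 CPM per kb, while most pump subunits lie between 44.4 and 591 CPM per kb.

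Where a subunit has several genes, a single gene carried nearly all of its reads for subunits B, C, E, G and e. In untreated cells Atp6v1b2 had 201 ± 1.94 CPM per kb while Atp6v1b1, the form known from kidney intercalated cells, had no count in any library. Atp6v1c1, Atp6v1e1 and Atp6v0e had 80.0 ± 1.55, 123 ± 8.02 and 165 ± 2.73 CPM per kb, while their partners Atp6v1c2, Atp6v1e2 and Atp6v0e2 summed to 1, 1 and 43 counts over all 10 libraries. Atp6v1g1 had 134 ± 9.22 CPM per kb against 2.45 ± 0.418 for Atp6v1g2, the form known from neurons, and no count for Atp6v1g3. Subunits a and d, which set the pump's address in the cell and couple its sectors, were shared by several genes. For subunit d, Atp6v0d1 had 81.2 ± 4.03 and Atp6v0d2, known from osteoclasts, 54.7 ± 1.37 CPM per kb. For subunit a, Atp6v0a1 had 78.5 ± 1.13 and Atp6v0a2 11.2 ± 0.247 CPM per kb, Atp6v0a4 summed to 2 counts, and Tcirg1, the a3 form of lysosomes and osteoclasts, whose symbol lies outside the set, had 198 ± 1.26 CPM per kb. The remaining rows that were not tested were Atp6ap1l, Ctsj, Ctsm, Ctsq and Ctsr with no count, Ctsw, a protease of cytotoxic lymphocytes, with 14 counts in all, and Ctsg, a serine protease of neutrophil granules, with 49.

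The start-site regions of these genes were read for the letters CACGTG, the E-box core, and TCACGTGA, the palindrome at the centre of the element that MiT/TFE factors bind in many lysosomal genes. RefSeq windows on GRCm38.p6, from 250 bases before to 50 after the start, were given for 34 of the 46 rows and for 23 of the 33 tested ones. A gene was counted where any of its windows held the motif. CACGTG was found in 9 of these 23 genes (39.1%), compared with 11.8% of 9119 tested genes with a window. TCACGTGA, which contains it, was found in 5 of 23 (21.7%, in Ctsa, Ctsd, Atp6v1a, Atp6v0d1 and Atp6v0e), compared with 2.20%. Both motifs read the same on both strands. TGANTCA, the AP-1 letters, occurred in 1 of 23 genes (4.35%, Atp6v0a1, compared with 6.55%). GGANTTTCC, the NF-kB letters, occurred in 1 of 23 (4.35%, Ctsl, compared with 1.73%). Each was searched on both strands. These are matches of letters only. The stretches below, 5′ to 3′ on the gene's strand with the motif in capitals, show the palindrome in the most abundant cathepsin, in Ctsa and in the catalytic subunit A of the pump, the 4 E-boxes of Lamp1 and the 2 of Atp6v0b. Those of Ctsc and Atp6v1e1, which rose under both scalings, are shown as examples of windows that hold none of the 4 motifs. Windows of other tested genes of the set also hold none.
Ctsd chr7:142387893-142387952 (minus): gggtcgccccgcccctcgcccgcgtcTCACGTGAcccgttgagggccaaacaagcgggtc
Ctsa chr2:164833713-164833772 (plus): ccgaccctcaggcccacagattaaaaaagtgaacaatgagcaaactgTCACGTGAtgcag
Atp6v1a chr16:44139360-44139419 (minus): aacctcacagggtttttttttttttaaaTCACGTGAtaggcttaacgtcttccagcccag
Lamp1 chr8:13159096-13159155 (plus): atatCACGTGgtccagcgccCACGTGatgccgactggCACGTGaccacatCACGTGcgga
Atp6v0b chr4:117887330-117887389 (minus): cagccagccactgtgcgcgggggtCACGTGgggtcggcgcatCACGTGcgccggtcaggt
Ctsc chr7:88278025-88278084 (plus): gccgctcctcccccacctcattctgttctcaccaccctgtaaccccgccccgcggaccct
Atp6v1e1 chr6:120822699-120822758 (minus): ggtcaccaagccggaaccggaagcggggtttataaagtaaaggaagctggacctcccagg

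At 10 nM, Ctsc and Atp6v1e1 rose and Atp6v1g2 fell at both times and under both scalings; most other genes of the set moved by little. With TMM, 15 of 33 rows were called higher and 2 lower at 10 nM 2 h than in untreated cells at an adjusted p below 0.05 (edgeR quasi-likelihood test, Benjamini-Hochberg over all 12918 genes), which is 51.5% of the rows. Of all tested genes 58.7% were called, 28.6% higher and 30.1% lower. The median log2 fold change was 0.21 in the set and -0.03 over all genes, and 27 of 33 rows lay above the median gene. At 10 nM 1 h, 9 rows were higher and 1 lower, or 30.3%, beside 36.9% of all genes, 18.5% higher and 18.3% lower. The medians were 0.11 in the set and -0.02 over all genes. By direction, 45.45% of the rows were called higher and 6.06% lower at 2 h, and 27.27% higher and 3.03% lower at 1 h. With library totals the same comparisons called 2 rows higher and 28 lower at 2 h, and 2 higher and 21 lower at 1 h. Over all tested genes, library totals called 14.7% higher and 61.1% lower at 2 h, and 9.91% higher and 52.3% lower at 1 h. The medians of the set were then -0.35 and -0.26 beside -0.59 and -0.38 over all genes. Dropping the TMM factors shifts all genes together, so the distance between the set's median and that of all genes could hardly change. It was 0.24 at 2 h and 0.12 at 1 h under both scalings. As a share of all counts, the set took 2.85% and 2.78% at 10 nM 2 h and 3.00% and 3.00% at 10 nM 1 h, against 3.81% and 3.71% in untreated cells. Its summed TMM-scaled level was 36210 and 35870 CPM at 10 nM 2 h against 33260 and 32160 CPM in untreated cells. The directions of the smaller changes therefore hold only relative to the bulk of genes. For fits that leave out a library, here and below, the share of all genes called was not computed. Their counts of called rows therefore cannot be set against that share. At 10 nM 1 h, the count of called rows was 6 without the experiment 1 untreated library, 5 without that of experiment 2 and 6 without the experiment 1 library of 10 nM 1 h. At 2 h it was 7 without the experiment 2 untreated library and 10 without the experiment 1 library of 10 nM 2 h. Leaving out libraries of 0.03 nM 2 h added calls with TMM. At 10 nM 2 h, 21 rows were called without that of experiment 1, with Ctsb, Atp6v1a, Atp6v1f and Atp6v0d1 added as higher. Without that of experiment 2 there were 22, with Ctsb, Atp6v1a and Atp6v1f added as higher and Ctsk and Ctsd as lower. At 10 nM 1 h, 14 rows were called without 1 or the other, with both Atp6v0c rows and Ctsh added as higher and Ctsd as lower.

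**Figure D2:**
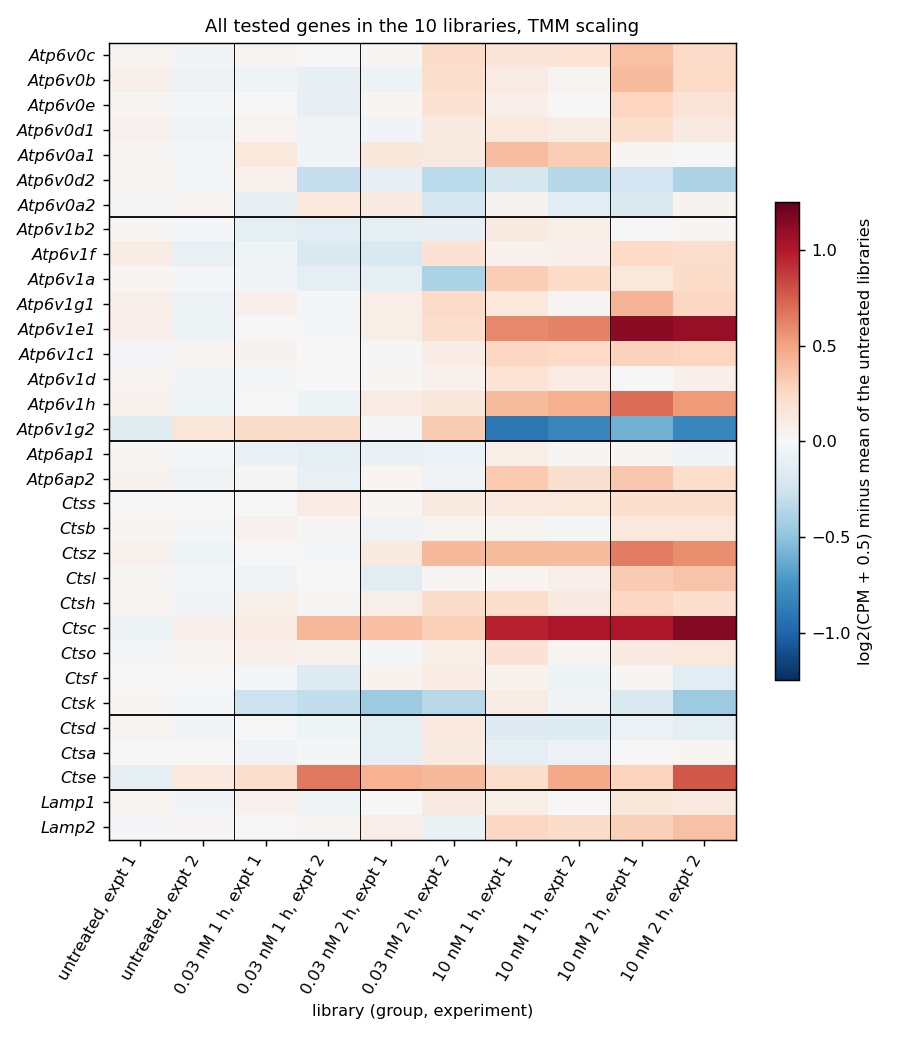
Difference in log2(CPM + 0.5) of each tested gene (rows, by role) from the mean of the untreated libraries, for the 10 libraries (columns), with TMM scaling. Ctsc, Atp6v1e1 and Atp6v1h are red and Atp6v1g2 is blue in all 10 nM libraries; with library totals Ctsc and Atp6v1e1 stay above 0 at 10 nM, Atp6v1h stands at 0.06 at both times, and Atp6v1g2 stays below 0.

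Among the V0 subunits, Atp6v0a1 was lower at 10 nM 2 h than at 10 nM 1 h under both scalings, while its rise over untreated cells at 1 h was seen with TMM and not with library totals. Its levels were 319 and 313 CPM in untreated cells, 347 and 309 at 0.03 nM 1 h and 350 and 342 at 0.03 nM 2 h. At 10 nM it had 413 and 392 CPM at 1 h and 321 and 317 CPM at 2 h. The 10 nM 1 h libraries lay above all others, and the 10 nM 2 h libraries were back among the untreated ones. At 10 nM 1 h against untreated cells the log2 fold change was 0.35 (SE 0.08, adjusted p = 0.00317) with TMM and -0.02 (adjusted p = 0.841) with library totals. 10 nM 2 h against 10 nM 1 h gave -0.34 (SE 0.08, adjusted p = 0.00341) with TMM and -0.53 with library totals. Atp6v0c had 699 and 662 CPM in untreated cells, 696 and 681 at 0.03 nM 1 h and 688 and 799 at 0.03 nM 2 h. The 10 nM values were 759 and 764 CPM at 1 h and 874 and 802 CPM at 2 h. Both 10 nM 2 h libraries lay above the untreated ones, but the 0.03 nM 2 h library of experiment 2 nearly reached them. Its log2 fold change at 10 nM 2 h was 0.30 (SE 0.08, adjusted p = 0.0087) with TMM and -0.26 with library totals.

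Atp6v0b, the second proteolipid of the ring, had 309 and 284 CPM in untreated cells, 287 and 276 at 0.03 nM 1 h and 282 and 346 at 0.03 nM 2 h. With 10 nM the level was 319 and 303 CPM at 1 h and 390 and 352 CPM at 2 h. On the log2 scale its fold change at 10 nM 2 h was 0.32 (SE 0.10, adjusted p = 0.0138) with TMM and -0.23 with library totals. The calls of Atp6v0c and Atp6v0b were lost without the experiment 1 library of 10 nM 2 h or without the experiment 2 untreated library, with adjusted p of up to 0.0888 and 0.123. Atp6v0e, a small subunit of V0, had 133 and 130 CPM in untreated cells, 131 and 122 at 0.03 nM 1 h, 134 and 149 at 0.03 nM 2 h, 137 and 131 at 10 nM 1 h, and 159 and 147 CPM at 10 nM 2 h, so that the 10 nM 2 h and 0.03 nM 2 h libraries overlapped. For Atp6v0e the log2 fold change at 10 nM 2 h was 0.22 (adjusted p = 0.0352) with TMM and -0.34 with library totals, and the call was lost with no filter on low counts and without any single untreated or 10 nM 1 h library or the experiment 1 library of 10 nM 2 h. Atp6v0d2 was the V0 subunit called lower, under both scalings. It had 139 and 134 CPM in untreated cells, 142 and 112 at 0.03 nM 1 h and 128 and 108 at 0.03 nM 2 h. Cells given 10 nM had 119 and 106 CPM at 1 h and 116 and 104 CPM at 2 h. Experiment 2 was lower in every group, and both 10 nM groups lay below both untreated libraries. In log2 terms its change at 10 nM 2 h was -0.31 (SE 0.12, adjusted p = 0.0426) with TMM and -0.87 (adjusted p = 5.57e-05) with library totals. It was not called with DESeq2 or with the deposited log2 values, nor without any single untreated, 10 nM 1 h or 10 nM 2 h library (adjusted p up to 0.226). With the experiment number as a replicate block it was also called at 10 nM 1 h (-0.28, adjusted p = 0.0181), where library totals gave -0.65. Atp6v0d1 and Atp6v0a2 were not called in any comparison with TMM and all libraries; their log2 fold changes at 10 nM 2 h were 0.17 and -0.07 with TMM and -0.39 and -0.62 with library totals. Atp6v0d1 was called higher there with DESeq2 size factors, with the deposited log2 values, with only the groups compared, and without the experiment 1 library of 0.03 nM 2 h (adjusted p of 0.0335 to 0.0463).

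The V1 sector held the largest changes of the pump. Atp6v1e1, a subunit of the peripheral stalks that hold the catalytic head still, had 155 and 141 CPM in untreated cells, 148 and 146 at 0.03 nM 1 h and 156 and 173 at 0.03 nM 2 h. Under 10 nM there were 225 and 227 CPM at 1 h and 324 and 315 CPM at 2 h. Neither 10 nM group overlapped any other group. At 10 nM 2 h it was 2.16-fold above untreated cells, a log2 fold change of 1.11 (SE 0.08, adjusted p = 1.61e-07) with TMM and 0.56 (adjusted p = 3.87e-05) with library totals. At 10 nM 1 h the values were 0.61 (SE 0.08, adjusted p = 5.88e-05) and 0.25 (adjusted p = 0.0152). Per kb it passed subunits A and B: Atp6v1e1 had 265 ± 4.94 CPM per kb at 10 nM 2 h, beside 195 ± 9.48 for Atp6v1a and 202 ± 2.35 for Atp6v1b2, whereas in untreated cells it had 123 ± 8.02, beside 172 ± 3.73 and 201 ± 1.94. Atp6v1g2, the scarce G subunit, had 3.22 and 4.10 CPM in untreated cells, 4.34 and 4.34 at 0.03 nM 1 h and 3.59 and 4.66 at 0.03 nM 2 h. At 10 nM it had 1.71 and 1.85 CPM at 1 h and 2.23 and 1.85 CPM at 2 h. All 4 libraries at 10 nM lay below the other 6. The log2 fold change for this gene was -1.04 (SE 0.22, adjusted p = 0.0025) at 10 nM 1 h and -0.84 (SE 0.22, adjusted p = 0.00547) at 10 nM 2 h with TMM, and -1.40 and -1.40 with library totals. The 2 h call was lost without the experiment 2 untreated library (adjusted p = 0.0586).

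Atp6v1h, the subunit that links the sectors and restrains the free V1, had 91.0 and 84.4 CPM in untreated cells, 88.2 and 83.6 at 0.03 nM 1 h and 94.4 and 96.7 at 0.03 nM 2 h. The 10 nM values were 116 and 119 CPM at 1 h and 142 and 127 CPM at 2 h. The 10 nM libraries all lay above the others, and the 2 h ones above the 1 h ones. Its log2 fold change was 0.62 (SE 0.08, adjusted p = 3.11e-05) at 2 h and 0.42 (SE 0.08, adjusted p = 0.00125) at 1 h with TMM; with library totals it was 0.06 at both times, with adjusted p of 0.495 and 0.575. Atp6v1g1, the abundant G subunit, had 154 and 139 CPM in untreated cells, 153 and 145 at 0.03 nM 1 h and 155 and 173 at 0.03 nM 2 h. With 10 nM the level was 160 and 149 CPM at 1 h and 197 and 175 CPM at 2 h. Both 10 nM 2 h libraries exceeded all others, the lower of them by little. On the log2 scale its fold change at 10 nM 2 h was 0.34 (SE 0.09, adjusted p = 0.00608) with TMM and -0.21 with library totals, and the call was lost without the experiment 1 library of 10 nM 2 h or the experiment 2 untreated library (adjusted p up to 0.0764). Atp6v1a, the subunit that hydrolyses ATP, had 687 and 667 CPM in untreated cells, 661 and 621 at 0.03 nM 1 h and 627 and 513 at 0.03 nM 2 h. Cells given 10 nM had 839 and 792 CPM at 1 h and 742 and 795 CPM at 2 h. In log2 terms its change was 0.27 (adjusted p = 0.0419) at 10 nM 1 h with TMM and -0.10 with library totals. That call was lost without any single untreated, 10 nM 1 h or 10 nM 2 h library. The value was 0.18 (adjusted p = 0.116) at 10 nM 2 h with TMM and -0.37 with library totals.

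Of the other V1 subunits, Atp6v1c1, whose product helps lock V1 onto V0, had log2 fold changes of 0.27 (adjusted p = 0.00529) at 10 nM 2 h and 0.25 (adjusted p = 0.0143) at 10 nM 1 h with TMM and -0.28 and -0.11 with library totals. The 2 h call was lost without the experiment 1 untreated library (adjusted p = 0.0508) and the 1 h call without any single untreated or 10 nM 1 h library. Atp6v1b2, the most abundant V1 subunit per kb in untreated cells, had 554 and 547 CPM in untreated cells, 509 and 500 at 0.03 nM 1 h and 505 and 513 at 0.03 nM 2 h. Under 10 nM there were 595 and 579 CPM at 1 h and 548 and 557 CPM at 2 h, with no call against untreated cells with TMM. Atp6v1d and Atp6v1f, of the central shaft, were not called in any comparison with TMM and all libraries. With only the groups compared Atp6v1d was called at 10 nM 1 h (0.14, adjusted p = 0.0432). Atp6v1f was called at 10 nM 2 h in the same kind of fit (0.24, adjusted p = 0.0158) and without either library of 0.03 nM 2 h (adjusted p = 0.0105 and 0.0161). Over the sectors, at 10 nM 2 h 4 of 9 V1 rows were called higher and 1 lower, and 4 of 8 V0 rows, which include the doubled Atp6v0c row, higher and 1 lower, or 55.6% and 62.5%, beside 58.7% of all genes. The medians were 0.23 for V1 and 0.19 for V0 with TMM, and -0.32 and -0.36 with library totals, which called 1 V1 row higher and 6 lower and 8 V0 rows lower. Of all genes, library totals called 14.7% higher and 61.1% lower.

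**Figure D3:**
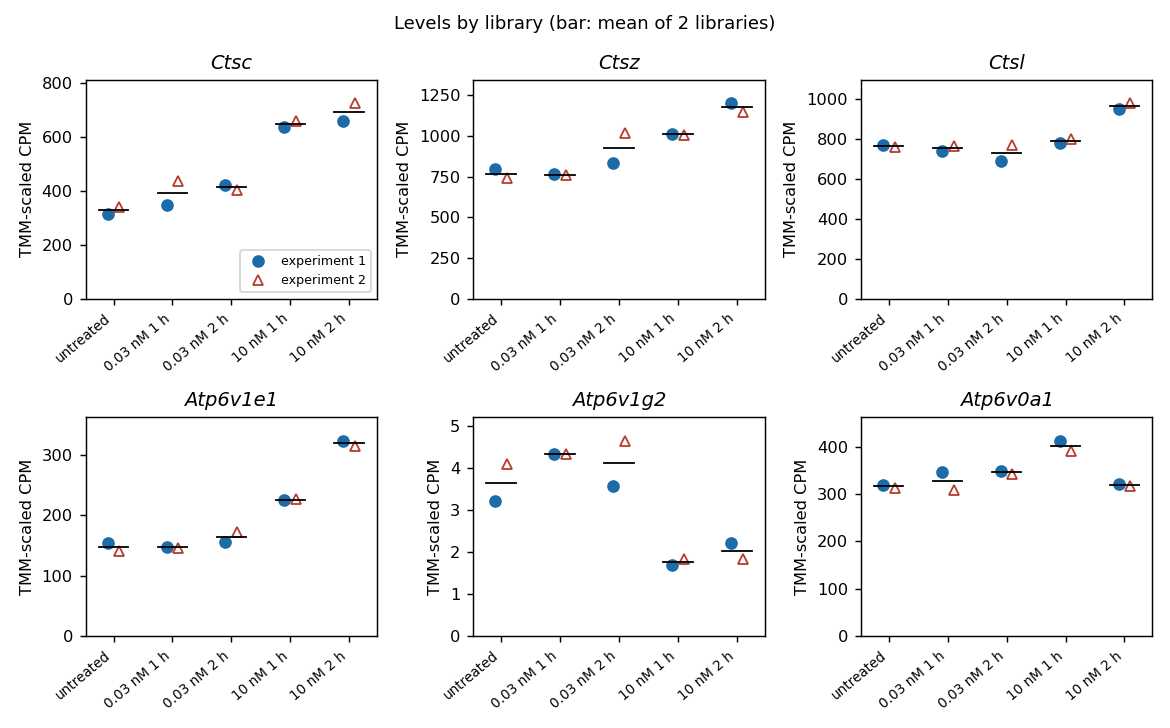
TMM-scaled CPM (vertical axes, from 0) of 6 genes in the 5 groups; circles are experiment 1, triangles experiment 2, bars the mean of the 2 libraries. Ctsc and Atp6v1e1 are raised and Atp6v1g2 is lowered at 10 nM at both times, also with library totals; Ctsz and Ctsl are raised at 10 nM 2 h (with library totals Ctsz stays level at 0.06 and Ctsl turns to -0.22 in log2), and Atp6v0a1 peaks at 10 nM 1 h, where with library totals it stood at -0.02.

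Of the accessory subunits, Atp6ap2 was called higher at 10 nM with TMM, which library totals turned below 0, and Atp6ap1 was not. Atp6ap1, which guides assembly of the V0 sector and was the more abundant of the pair, had 372 and 365 CPM in untreated cells, 349 and 341 at 0.03 nM 1 h and 348 and 351 at 0.03 nM 2 h. At 10 nM it had 387 and 372 CPM at 1 h and 374 and 359 CPM at 2 h, and was not called in any comparison with TMM and all libraries. With library totals both accessory subunits were called lower at 10 nM 2 h, with a median log2 fold change of -0.42, where 61.1% of all genes were lower. Atp6ap2, also known as the prorenin receptor, had 278 and 262 CPM in untreated cells, 273 and 254 at 0.03 nM 1 h and 275 and 261 at 0.03 nM 2 h. The 10 nM values were 338 and 309 CPM at 1 h and 341 and 314 CPM at 2 h. Its 4 libraries at 10 nM lay above the other 6. The log2 fold change of Atp6ap2 was 0.28 (SE 0.08, adjusted p = 0.0108) at 2 h and 0.26 (SE 0.08, adjusted p = 0.0237) at 1 h with TMM, and -0.28 and -0.11 with library totals. The 1 h call was lost without either untreated library or the experiment 1 library of 10 nM 1 h (adjusted p up to 0.198), and the 2 h call without the experiment 2 untreated library or the experiment 1 library of 10 nM 2 h (adjusted p up to 0.105). Whether the responses of the pair differ was not tested.

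Among the cysteine cathepsins Ctsc had the largest fold change at 10 nM, called under both scalings. It encodes cathepsin C, or dipeptidyl peptidase I, which activates granule serine proteases by trimming their ends. Ctsc had 313 and 341 CPM in untreated cells, 348 and 435 at 0.03 nM 1 h and 423 and 402 at 0.03 nM 2 h. With 10 nM the level was 637 and 660 CPM at 1 h and 657 and 724 CPM at 2 h. All 10 nM libraries lay above all others, and all 0.03 nM libraries above both untreated ones. Against untreated cells the log2 fold change was 1.08 (SE 0.10, adjusted p = 2.52e-06) at 10 nM 2 h and 0.99 (SE 0.10, adjusted p = 1.14e-05) at 10 nM 1 h with TMM, and 0.52 (adjusted p = 0.000572) and 0.62 (adjusted p = 0.000286) with library totals. Its share of the summed CPM of the set was 1.82% and 2.02% at 10 nM 2 h against 0.942% and 1.06% in untreated cells. Ctsz, a carboxypeptidase also called cathepsin X, had 797 and 740 CPM in untreated cells, 764 and 758 at 0.03 nM 1 h and 832 and 1015 at 0.03 nM 2 h. Cells given 10 nM had 1010 and 1007 CPM at 1 h and 1200 and 1148 CPM at 2 h. The 10 nM 2 h libraries lay above all others, while those of 10 nM 1 h overlapped the 0.03 nM 2 h pair. For Ctsz the log2 fold change was 0.61 (SE 0.09, adjusted p = 0.000105) at 2 h and 0.39 (SE 0.09, adjusted p = 0.00501) at 1 h with TMM, and 0.06 and 0.03, not called, with library totals. That 1 h call was lost without the experiment 2 untreated library (adjusted p = 0.0587).

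Ctsl, cathepsin L, had 770 and 759 CPM in untreated cells, 742 and 766 at 0.03 nM 1 h and 693 and 771 at 0.03 nM 2 h. Under 10 nM there were 779 and 799 CPM at 1 h and 951 and 980 CPM at 2 h. Only the 10 nM 2 h libraries stood clear of the rest. The log2 fold change for this gene was 0.34 (SE 0.07, adjusted p = 0.00173) at 10 nM 2 h with TMM and -0.22 with library totals, and 0.05 (adjusted p = 0.676) at 10 nM 1 h with TMM and -0.32 with library totals. Ctss, the highest of the cysteine cathepsins per kb, had 3754 and 3795 CPM in untreated cells, 3796 and 4060 at 0.03 nM 1 h and 3833 and 4092 at 0.03 nM 2 h. At 10 nM it had 4101 and 4139 CPM at 1 h and 4332 and 4407 CPM at 2 h. The 10 nM libraries exceeded all others, the lowest of them barely. For Ctss at 10 nM 2 h the log2 fold change was 0.21 (SE 0.07, adjusted p = 0.0206) with TMM and -0.35 with library totals. Ctsh, an aminopeptidase, had 360 and 344 CPM in untreated cells, 369 and 355 at 0.03 nM 1 h, 371 and 412 at 0.03 nM 2 h, 409 and 381 at 10 nM 1 h, and 422 and 403 CPM at 10 nM 2 h, where its log2 fold change was 0.23 (SE 0.08, adjusted p = 0.0231) with TMM and -0.33 with library totals. The calls of Ctss and Ctsh were lost without any single untreated or 10 nM 2 h library, with adjusted p of up to 0.11 and 0.148. The remaining 4 tested genes, Ctsb, Ctsf, Ctsk and Ctso, were not called in any comparison with TMM and all libraries. Ctsb had 12930 and 12890 CPM at 10 nM 2 h against 11990 and 11550 CPM in untreated cells, a log2 difference of 0.13 (adjusted p = 0.111) with TMM and -0.42 with library totals; DESeq2 called it higher (0.16, adjusted p = 0.0424). Ctsk, the collagen-degrading protease of osteoclasts, had 7.29 and 5.92 CPM at 10 nM 2 h, 5.91 and 6.43 CPM at 0.03 nM 2 h and 8.38 and 8.22 CPM in untreated cells. The log2 difference of Ctsk from untreated cells was -0.33 (adjusted p = 0.0612) at 10 nM 2 h and -0.43 (adjusted p = 0.0809) at 0.03 nM 2 h with TMM, and -0.88 (adjusted p = 0.000125) and -0.49 (adjusted p = 0.0419) with library totals. Without the experiment 1 library of 10 nM 2 h it was called at 10 nM 2 h with TMM (-0.49, adjusted p = 0.0279). Of the osteoclast markers, Nfatc1 had 50.7 and 51.4 CPM at 10 nM 2 h and 49.8 and 37.5 CPM at 0.03 nM 2 h, against 60.4 and 65.2 CPM in untreated cells, and Calcr and Oscar were at most 0.169 CPM in any library. Acp5, Mmp9 and Car2 were higher at 10 nM 2 h than in untreated cells. Of 7 osteoclast markers tested there with TMM, 3 were called higher and 1 lower, or 57.1% beside 58.7% of all genes. The osteoclast list summed to 124 to 125 CPM at 10 nM 2 h, against 99.9 to 102 CPM in untreated cells. At 0.03 nM 2 h the sum was 79.3 to 88.7 CPM. Without Acp5 it was 82.5 to 83.9 CPM at 10 nM 2 h and 67.4 to 77.3 CPM at 0.03 nM 2 h. Untreated cells then had 88.9 to 92.5 CPM. The part of the list in the Ctsk values was not tested.

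The aspartic and serine cathepsins were not called in any comparison with TMM and all libraries. Ctsd had 7501 and 7123 CPM in untreated cells, 7333 and 7045 at 0.03 nM 1 h and 6704 and 7963 at 0.03 nM 2 h. The 10 nM values were 6541 and 6523 CPM at 1 h and 6953 and 6711 CPM at 2 h. Both 10 nM groups lay below both untreated libraries. Its log2 fold change was -0.16 (adjusted p = 0.164) at 10 nM 1 h and -0.10 (adjusted p = 0.348) at 10 nM 2 h with TMM, and -0.53 (adjusted p = 0.000211) and -0.65 (adjusted p = 1.94e-05) with library totals. With TMM it was called at 10 nM 1 h when either library of 0.03 nM 2 h was left out (adjusted p = 0.0174 and 0.0121) and when only the groups compared were used (adjusted p = 0.00664). As a share of the summed CPM of the set, Ctsd took 19.2% and 18.7% at 10 nM 2 h against 22.6% and 22.2% in untreated cells. Ctsa, a serine carboxypeptidase that shields lysosomal glycosidases, had 805 and 826 CPM at 10 nM 2 h against 811 and 808 CPM in untreated cells, a log2 difference of 0.01 (adjusted p = 0.925) with TMM and -0.55 with library totals. Its exons overlap 495 bases of Pltp and 324 of Neurl2 on the opposite strand, and Pltp had 725270 counts in all against 300992 for Ctsa. Without the strand setting of the counting their reads cannot be told apart. Ctse had 2.13 and 3.21 CPM at 10 nM 2 h against 1.5 and 1.86 CPM in untreated cells, a log2 difference of 0.67 (SE 0.28, adjusted p = 0.0575) with TMM and 0.11 with library totals. With the replicate block it was 0.66 and called (adjusted p = 0.0271), and without the experiment 1 library of 10 nM 2 h it was 0.93 (adjusted p = 0.0261).

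Lamp2 was called higher at 10 nM with TMM, which library totals turned below 0, and Lamp1 was not. Lamp1 had 1780 and 1692 CPM in untreated cells, 1797 and 1675 at 0.03 nM 1 h, 1724 and 1871 at 0.03 nM 2 h, 1821 and 1734 at 10 nM 1 h, and 1916 and 1875 CPM at 10 nM 2 h, with a log2 fold change of 0.13 (adjusted p = 0.167) at 10 nM 2 h with TMM and -0.43 with library totals. Lamp2, which also serves chaperone-mediated autophagy, had 639 and 649 CPM in untreated cells, 646 and 660 at 0.03 nM 1 h and 684 and 608 at 0.03 nM 2 h. With 10 nM the level was 773 and 755 CPM at 1 h and 793 and 830 CPM at 2 h. The 4 libraries of Lamp2 at 10 nM lay above the other 6. On the log2 scale its fold change was 0.33 (SE 0.07, adjusted p = 0.00218) at 2 h and 0.25 (SE 0.07, adjusted p = 0.0221) at 1 h with TMM, and -0.22 and -0.12 with library totals. The 1 h call was lost without any single untreated or 10 nM 1 h library (adjusted p up to 0.131). The difference between Lamp1 and Lamp2 was not tested.

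**Figure D4:**
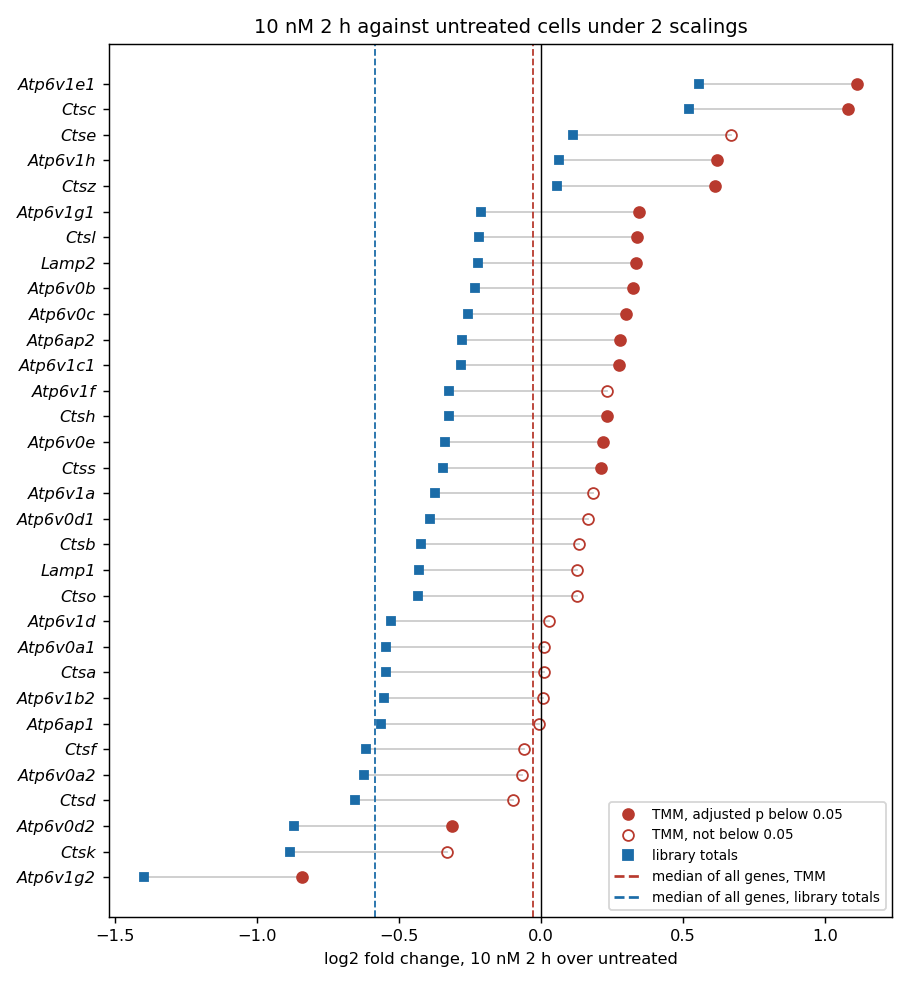
Log2 fold change of the 32 genes at 10 nM 2 h against untreated cells with TMM (circles, filled where the adjusted p is below 0.05) and with library totals (squares); dashed lines mark the median of all genes under each. Squares sit left of circles throughout, and only Ctsc and Atp6v1e1 are called higher under both, while Atp6v1h and Ctsz stand at 0.06 and the other 10 called higher with TMM lie below 0 with library totals.

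Against 0.03 nM at equal times, 10 nM again raised Ctsc and Atp6v1e1 and lowered Atp6v1g2 under both scalings. At 2 h, 9 of 33 rows were higher and 1 lower, or 30.3%, beside 52.8% of all genes, 25.6% higher and 27.2% lower. At 1 h, 10 were higher and 1 lower, or 33.3%, beside 35.3% of all genes, 18% higher and 17.3% lower. With library totals these were 2 higher and 25 lower at 2 h, and 2 higher and 19 lower at 1 h, beside 13.4% higher and 59.1% lower of all genes at 2 h, and 9.33% and 51.0% at 1 h. Ctsc had log2 fold changes of 0.74 (SE 0.10, adjusted p = 7.06e-05) at 2 h and 0.73 (SE 0.10, adjusted p = 0.00015) at 1 h with TMM, and 0.25 (adjusted p = 0.0397) and 0.37 (adjusted p = 0.00784) with library totals. Atp6v1e1 had 0.96 (SE 0.08, adjusted p = 8.57e-07) and 0.62 (SE 0.08, adjusted p = 5.91e-05) with TMM, and 0.47 and 0.26 with library totals, all called. Atp6v1g2 had -1.02 and -1.28 with TMM, and -1.50 and -1.64 with library totals, also all called. Called at both times with TMM but not above 0.10 with library totals were Atp6v1h (0.50 and 0.45), Ctsz (0.35 and 0.41), Atp6v1a (0.43 and 0.35), Atp6v1c1 (0.24 and 0.23), Atp6ap2 (0.29 and 0.30) and Lamp2 (0.33 and 0.23), where library totals gave 0.01 and 0.10, -0.14 and 0.05, -0.06 and -0.01, -0.25 and -0.13, -0.20 and -0.06, and -0.16 and -0.13. Atp6v1a was lower at 0.03 nM 2 h than elsewhere, mainly in the experiment 2 library. Its transcript is among the longer ones (3946 bases), and the part of length in this was not tested. Its value at 2 h was 0.26 without that library and 0.58 without the experiment 1 library of 0.03 nM 2 h, called in both. Without that experiment 2 library Atp6v1f was also called at 2 h (0.39, adjusted p = 0.00176, against 0.23 with all libraries). Ctsl was called at 2 h (0.40, SE 0.07, adjusted p = 0.000595 with TMM and -0.09 with library totals), and Atp6v1b2 (0.22 with TMM and -0.14 with library totals) and Atp6v0a1 (0.30 and -0.06) at 1 h. Several of these calls were lost when 1 library was left out. At 2 h Ctsz (adjusted p = 0.0526) and Atp6ap2 (adjusted p = 0.0961) were lost without the experiment 1 library of 10 nM, and Atp6v1c1 without either library of 10 nM (adjusted p up to 0.0951). At 1 h Atp6v0a1, Atp6v1a and Atp6ap2 were lost without the experiment 1 library of 10 nM or the experiment 2 library of 0.03 nM (adjusted p up to 0.132). Atp6v1b2 and Atp6v1c1 were lost at 1 h without any single library of the groups compared, with log2 fold changes of 0.20 to 0.24 and 0.21 to 0.25 over all fits that left out a library, and Lamp2 without any of these, either untreated library or the experiment 1 library of 10 nM 2 h (adjusted p up to 0.171). At 1 h the count of called rows was 5 without the experiment 1 library of 10 nM and 5 without the experiment 2 library of 0.03 nM, and at 2 h it was 16 without the experiment 2 library of 0.03 nM.

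With TMM and all libraries, the low dose moved no gene of the set past the threshold. Library totals called 1 row at 2 h, Ctsk, which was lower as given above. Of all genes, library totals called 5.30% higher and 5.64% lower there. At 0.03 nM, 0 of 33 rows were called at 1 h with TMM, beside 1.53% of all genes, 1.42% higher and 0.108% lower. At 2 h 0 rows were called, beside 9.82% of all genes, 6.45% higher and 3.37% lower. At an unadjusted p below 0.05 there were 2 rows at 1 h and 4 at 2 h, and DESeq2 called 0 at 1 h and 1 at 2 h. The log2 fold changes ran from -0.31 (Ctsk) to 0.56 (Ctse) at 1 h and from -0.43 (Ctsk) to 0.52 (Ctse) at 2 h, with medians of -0.01 and 0.04. Ctsc had the lowest adjusted p, with 0.34 (SE 0.10, adjusted p = 0.065) at 2 h with TMM and 0.27 with library totals. It was called with the replicate block (0.34, adjusted p = 0.0363), by DESeq2 (adjusted p = 0.035), with no filter (adjusted p = 0.0265), and without either library of 0.03 nM 1 h (adjusted p = 0.0228 and 0.0224). Without the experiment 1 library of 0.03 nM 2 h, 6 rows were called against untreated cells: Ctsz (0.40), Atp6v0c with its doubled row (0.23), Atp6v1e1 (0.22) and Ctsh (0.23) higher and Atp6v1a (-0.40) lower. The share of all genes called without that library was not computed. Of the 5 groups, 0.03 nM 2 h is the one in which the experiments differed most with exonic length. Untreated libraries also differed with length, with the opposite sign (rho of 0.35 over 8126 genes). The part of length in these values was not tested. The comparison of 0.03 nM 2 h with 0.03 nM 1 h called 0 rows, beside 5.11% of all genes, 3.51% higher and 1.59% lower. DESeq2 called 0, and 1 row had an unadjusted p below 0.05. Without that same library 8 rows were called, 7 higher and 1 lower.

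Between 1 h and 2 h at 10 nM, 4 of 33 rows were called, or 12.1%, beside 42.8% of all genes, 21.3% higher and 21.5% lower. Atp6v1e1 (0.50, SE 0.08, adjusted p = 0.000279), Ctsl (0.29, SE 0.07, adjusted p = 0.00684) and Atp6v1g1 (0.27, SE 0.09, adjusted p = 0.0334) were higher at 2 h than at 1 h with TMM, and with library totals their values were 0.31, 0.10 and 0.08, of which only the first was called. Atp6v0a1 was lower under both scalings, as given above. Ctsc was not called between these times (0.09, adjusted p = 0.511, with TMM and -0.10 with library totals). The number of called rows was 2 without the experiment 1 library of 10 nM 1 h, where Ctsl and Atp6v1g1 were lost. Ctsl was also lost without the experiment 2 library of 10 nM 2 h (adjusted p up to 0.0714), and Atp6v1g1 without the experiment 1 library of 10 nM 2 h or the experiment 2 library of 10 nM 1 h (adjusted p up to 0.259). The number was 10 and 9 without the experiment 1 and experiment 2 libraries of 0.03 nM 2 h. The test of whether the change from 1 h to 2 h differed between the doses called 3 of 33 rows, or 9.09%, beside 22% of all genes, 10.4% higher and 11.6% lower. These were Atp6v0a1 at -0.41 (SE 0.11, adjusted p = 0.0157), Atp6v1e1 at 0.34 (SE 0.11, adjusted p = 0.0435) and Ctsl at 0.33 (SE 0.10, adjusted p = 0.0371). With library totals these were -0.54 (adjusted p = 0.00316), 0.21 (adjusted p = 0.183) and 0.20 (adjusted p = 0.165). The call of Atp6v0a1 was lost without the experiment 1 library of 10 nM 1 h, the experiment 2 library of 0.03 nM 1 h or the experiment 2 library of 10 nM 2 h. Those of Atp6v1e1 and Ctsl were lost in all 8 fits that left out a library other than those of 0.03 nM 2 h (adjusted p up to 0.146 and 0.155). Ctsc gave 0.01 (adjusted p = 0.97) in this test.

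Among proteins that assemble or adjoin the pump, Tbc1d24, Tmem199 and Ccdc115 fell and Ncoa7 and Vma21 rose at 10 nM 2 h under both scalings. Of 13 such genes, 3 were called higher and 5 lower at 10 nM 2 h than in untreated cells, or 61.5% beside 58.7% of all genes, with a median log2 fold change of 0.14 beside -0.03 over all genes. With library totals 2 were higher and 8 lower, where 14.7% of all genes were higher and 61.1% lower. Tmem199 and Ccdc115, whose human products form a complex in pump assembly, had 5.45 and 6.87 CPM and 20.4 and 19.0 CPM at 10 nM 2 h against 17.2 and 15 CPM and 41.9 and 42.5 CPM in untreated cells. Their log2 fold changes were -1.39 (adjusted p = 2.28e-06) and -1.10 (adjusted p = 6.42e-07) with TMM and -1.94 and -1.66 with library totals. Tbc1d24, a protein reported to bind the pump, had -1.76 with TMM and -2.32 with library totals, and Ncoa7, a TLDc-domain protein that binds V1, had 1.14 and 0.58, all called. Vma21, a pump assembly factor named here after its values were seen, had 127 and 130 CPM at 10 nM 2 h against 77.4 and 74.3 CPM in untreated cells, a log2 fold change of 0.76 (SE 0.08, adjusted p = 7.44e-06) with TMM and 0.21 (adjusted p = 0.0419) with library totals. Tcirg1 had 260 ± 1.31 CPM per kb at 10 nM 2 h against 198 ± 1.26 CPM per kb in untreated cells, a log2 fold change of 0.39 (adjusted p = 0.000939) with TMM and -0.17 (adjusted p = 0.0632) with library totals.

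Among genes for cathepsin inhibitors, Cst7 and Serpina3g rose at 10 nM 2 h under both scalings. Of 16 listed, 9 were tested, and 5 were called higher and 0 lower at 10 nM 2 h, or 55.6% beside 58.7% of all genes, with a median log2 fold change of 0.42. With library totals 2 were higher and 4 lower, where 14.7% of all genes were higher and 61.1% lower. Cst7, which encodes cystatin F, an inhibitor of cathepsin C and other cysteine cathepsins in immune cells, had 1.02 and 1.23 CPM in untreated cells, 1.23 and 1.34 at 0.03 nM 1 h and 1.31 and 1.44 at 0.03 nM 2 h. Cells given 10 nM had 2.75 and 1.56 CPM at 1 h and 12.2 and 12.8 CPM at 2 h. Serpina3g, a serpin that inhibits cysteine cathepsins, had 18.6 and 22.4 CPM at 10 nM 2 h against 1.501 and 2.36 CPM in untreated cells. The log2 fold changes of Cst7 and Serpina3g at 10 nM 2 h were 3.47 (SE 0.25, adjusted p = 2.04e-07) and 3.40 (SE 0.24, adjusted p = 1.38e-07) with TMM and 2.91 and 2.85 with library totals. Both remained scarce: Cst7 reached 12.7 ± 0.438 CPM per kb at 10 nM 2 h, beside 2069 ± 12.4 CPM per kb for Cst3, or cystatin C, and 279 ± 19.1 CPM per kb for Ctsc. Cstb (0.32 with TMM and -0.24 with library totals) and Ctla2a (0.49 and -0.07) depended on the scaling.

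Of 38 other lysosomal enzymes, 5 were called higher and 15 lower at 10 nM 2 h, or 52.6% beside 58.7% of all genes, with a median log2 fold change of -0.04. With library totals 1 was higher and 36 lower, where 61.1% of all genes were lower. Acp5, the tartrate-resistant acid phosphatase that also serves as an osteoclast marker, had 42.9 and 40.3 CPM at 10 nM 2 h against 11 and 9.19 CPM in untreated cells (log2 2.04 with TMM and 1.49 with library totals). Hyal1, a hyaluronidase, Sgsh, a heparan sulfatase, and Pla2g15, a lysosomal phospholipase, fell by 1.20, 1.10 and 0.88 on the log2 scale with TMM, and by 1.75, 1.66 and 1.44 with library totals. Of 31 other membrane and transport proteins, 10 were higher and 10 lower, or 64.5% beside the same 58.7%, with a median of -0.01. With library totals 4 were higher and 23 lower, where 14.7% of all genes were higher and 61.1% lower. The ion channel gene Mcoln2 had 214 and 219 CPM at 10 nM 2 h against 43.8 and 46.5 CPM in untreated cells, a log2 fold change of 2.26 with TMM and 1.71 with library totals. Ctns, the cystine exporter, and Slc36a1, an amino acid exporter, had -1.78 and -1.33 with TMM and -2.33 and -1.89 with library totals.

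Among the transcription factors that bind the E-box of lysosomal genes, Tfec rose and Tfeb fell at 10 nM under both scalings. Of 26 MiT/TFE factors, their competitors and mTORC1 regulators, 7 were called higher and 9 lower at 10 nM 2 h, or 61.5% beside 58.7% of all genes, with a median of -0.04. With library totals 5 were higher and 20 lower, where 14.7% of all genes were higher and 61.1% lower. Tfeb had 55.5 and 55.6 CPM in untreated cells, 53.3 and 46.6 at 0.03 nM 1 h and 45.6 and 51.4 at 0.03 nM 2 h. Under 10 nM there were 38.6 and 37.0 CPM at 1 h and 10.1 and 8.58 CPM at 2 h. Tfec, a family member expressed mainly in macrophages, had 31.1 and 30.4 CPM in untreated cells, 29.6 and 28.0 at 0.03 nM 1 h and 52.0 and 55.5 at 0.03 nM 2 h. At 10 nM it had 309 and 292 CPM at 1 h and 526 and 463 CPM at 2 h. At 10 nM 2 h the log2 fold change of Tfeb was -2.57 (SE 0.11, adjusted p = 2.44e-09) with TMM and -3.12 with library totals, and that of Tfec 4.01 (SE 0.09, adjusted p = 2.81e-11) and 3.45. Flcn, which encodes folliculin, a regulator that keeps these factors in the cytoplasm, had -2.46 and -3.01, and Myc, a competitor for the same letters, peaked at 10 nM 1 h with 4.14 and 3.77. The other two family members, named here after their values were seen, were Mitf at 1.85 and 1.30 and Tfe3 at 0.37 and -0.19 at 10 nM 2 h. Beside these, the 5 genes whose windows hold TCACGTGA had log2 fold changes at 10 nM 2 h of -0.10 for Ctsd, 0.01 for Ctsa, 0.18 for Atp6v1a, 0.17 for Atp6v0d1 and 0.22 for Atp6v0e with TMM, and -0.65, -0.55, -0.37, -0.39 and -0.34 with library totals. At 10 nM 2 h against untreated cells none of the first 4 was called with TMM and all libraries. Atp6v1a was called in other comparisons, as given above. Windows of Atp6v0b, Ctsf, Ctsl and Lamp1 hold CACGTG without the palindrome. Their log2 fold changes at 10 nM 2 h were 0.32, -0.06, 0.34 and 0.13 with TMM. Atp6v0b and Ctsl were called higher there, and library totals turned them to -0.23 and -0.22.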

How the data were processed

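The authors deposited 2 tables for all libraries: read counts per gene, whole numbers over mm9 gene models in featureCounts format per the file headers, and regularised log2 values of those counts. The submitters' processing notes list featureCounts 1.4.5-p1, TopHat2 2.0.11, bcl2fastq 2.15.0.4 and DESeq2 without roles. The kit was directional per the labels, but how strand was used in counting is not given in the sources used here. Symbols and lengths are those of the count table.

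The 12918 genes kept by filterByExpr on the 5 groups were scaled by TMM and fitted by the quasi-likelihood method of edgeR 4.0.16 in R 4.3.3. The model had 1 mean per group over all 10 libraries and 5 residual degrees of freedom. Genes were called where the Benjamini-Hochberg value over the whole table was below 0.05. SEs are the absolute log2 fold change over the root of the F statistic. The code was tested on simulated data. Alternatives were DESeq2 size factors, library totals, no filter, DESeq2 1.42.0, limma 3.58.1 on the deposited log2 values, the replicate block, only the groups compared, and leaving out each library. Libraries carry an experiment number in the labels, the same 2 numbers in every group, and were taken as paired by it. Their deviations from group means correlated at -0.27 to 0.55 between groups (median 0.17, with 7 of 10 pairs of groups above 0.1).

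The genes, roles and related lists were chosen with earlier results of these data known. Named with the value of every library are, in each role, the most abundant gene per kb and up to 5 called genes with the largest changes. From each related list up to 4 genes are named, with fold changes and, for some, library values. One gene that this rule names is not reported here. Motifs were counted in RefSeq windows of GRCm38.p6, a later build than that of the count table. Depth limits the precision of scarce genes: Ctse had 858 counts and Atp6v1g2 1243 counts in all.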

Additional observations from a re-analysis of the deposited data

Results flagged for a closer look

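Of the 33 tested rows of the set, 3 were called as changing differently between 1 h and 2 h at the 2 doses. That is 9.09%, beside 22% of all genes, by the test of that difference itself in edgeR. The values are the log2 change from 1 h to 2 h at 10 nM minus that at 0.03 nM. Atp6v0a1 gave -0.41 (SE 0.11, adjusted p = 0.0157), with 10 nM libraries of 321 and 317 CPM at 2 h against 413 and 392 CPM at 1 h, and 0.03 nM libraries of 350 and 342 CPM at 2 h against 347 and 309 CPM at 1 h. Atp6v1e1 gave 0.34 (SE 0.11, adjusted p = 0.0435) and Ctsl 0.33 (SE 0.10, adjusted p = 0.0371). With library totals Atp6v0a1 gave -0.54, and Atp6v1e1 and Ctsl gave 0.21 and 0.20, not called. The calls of Atp6v1e1 and Ctsl were also lost with no filter on low counts and, as given above, without most single libraries. That of Atp6v0a1 was lost without some single libraries. Groups of 2 libraries were too small for a check of single libraries that stand apart.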

How the results depend on the processing

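Of 55 called pairs of a gene and a comparison, 25 held under every alternative other than library totals, and 13 under library totals too. With library totals the rows called numbered 1 at 0.03 nM 2 h, 23 at 10 nM 1 h and 30 at 10 nM 2 h against untreated cells, 21 and 27 for 10 nM against 0.03 nM at 1 h and 2 h, 7 for 10 nM 2 h against 1 h, and 1 for the dose by time test. Of all genes, library totals called 13.6% higher and 33.05% lower for 10 nM 2 h against 1 h. In the dose by time test the shares were 7.94% and 17.8%, and those of the other comparisons are given above. The sign turned in 28 pairs, all with library totals. At 10 nM 1 h against untreated cells these were Atp6v0a1 -0.019, Atp6v1c1 -0.11, Atp6v1a -0.10, Atp6ap2 -0.11 and Lamp2 -0.12. At 10 nM 2 h against untreated cells they were Ctsl -0.22, Atp6v1c1 -0.28, Atp6v0c-ps2 -0.26, Atp6v0c -0.26, Atp6v0e -0.34, Ctss -0.35, Atp6v1g1 -0.21, Atp6v0b -0.23, Ctsh -0.33, Atp6ap2 -0.28 and Lamp2 -0.22. For 10 nM against 0.03 nM they were, at 1 h, Atp6v0a1 -0.063, Atp6v1c1 -0.13, Atp6v1a -0.0099, Atp6v1b2 -0.14, Atp6ap2 -0.0625 and Lamp2 -0.13, and, at 2 h, Ctsl -0.088, Atp6v1c1 -0.25, Atp6v1a -0.0575, Ctsz -0.14, Atp6ap2 -0.20 and Lamp2 -0.16. The alternative drops the TMM factors, which shifts all genes together; levels per kb in untreated cells became 1.15 times those with TMM. With no filter 1 row was called at 0.03 nM 2 h and 1 in the dose by time test. DESeq2 called 1 at 0.03 nM 2 h. For 10 nM 2 h against 1 h, DESeq2 size factors gave 7, limma on the deposited log2 values 8 and only the groups compared 11, and the last gave 17 at 10 nM 1 h against untreated cells; the cause was not tested. The replicate block, which pairs libraries by experiment number, called 1 at 0.03 nM 2 h, 11 at 10 nM 1 h and 18 at 10 nM 2 h, and changed no call other than those of Ctsc, Atp6v0d2 and Ctse given above. Leaving out each library gave 0 to 6 called at 0.03 nM 2 h, 5 to 14 at 10 nM 1 h and 7 to 22 at 10 nM 2 h against untreated cells, 5 to 12 and 7 to 16 for 10 nM against 0.03 nM at 1 h and 2 h, 0 to 8 and 2 to 10 for 2 h against 1 h at 0.03 nM and at 10 nM, and 0 to 3 for the dose by time test. A group left with 1 library was assumed to vary like the others. The share of all genes called was not computed for the fits that left out a library. Nor was it computed for no filter, DESeq2, limma, the replicate block or only the groups compared.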
